A study of Rattus norvegicus with 6 samples.

Results

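The Nr4a nuclear receptors are the 3 genes Nr4a1, Nr4a2 and Nr4a3, taken here as 3 of the 14882 gene rows that held a count and of the 11426 genes that passed the filter on low counts, which all 3 members passed. They were chosen from the values of the same TBHP+FGF21 against TBHP contrast described below, so their difference between the groups is given as a description, with no test. The libraries came from primary NPCs (nucleus pulposus cells) cultured from the tail discs of male wild type Sprague-Dawley rats. Of the 6 RNA-seq libraries, 3 were of the TBHP group, exposed to the oxidant tert-butyl hydroperoxide, and 3 of the TBHP+FGF21 group, exposed to TBHP together with recombinant rat FGF21, a hormone-like fibroblast growth factor. All 6 libraries therefore carried the TBHP treatment, no library of untreated NPCs was analysed here, and the sources used here give no TBHP dose, FGF21 dose or time for these libraries. The treatment labels of TBHP+FGF21 replicates 2 and 3 name FGF22 and FGF23 in place of FGF21, whereas the series' own design text names FGF21 for the whole group, and that grouping was used. The question addressed is how the 3 receptor genes differed between stressed NPCs with and without the factor.

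NR4A proteins are orphan members of the nuclear receptor family of transcription factors, also known as Nur77 (Nr4a1), Nurr1 (Nr4a2) and Nor1 (Nr4a3). Their ligand pocket is closed by bulky side chains, so that their activity follows mainly from how much protein is made, and their genes are immediate-early genes, transcribed within minutes of a stimulus without new protein synthesis. Cyclic AMP acting through protein kinase A and CREB, and ERK signalling acting through SRF and MEF2 factors, are the classical inputs, and the proteins bind the NBRE element as monomers, while Nr4a1 and Nr4a2 also pair with the retinoid X receptor (RXR).

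The promoters are shown because the CRE half-site (TGACG, or CGTCA when read on the other strand), the element bound by CREB, is the part of the sequence through which the cyclic AMP input is known to act. The windows are the 250 bases before the annotated start of each gene, from RefSeq on build GRCr8, written 5′ to 3′ on the gene's own strand, with half-sites in capitals. The Nr4a1 window is chr7:134259888-134260137 on the plus strand and the Nr4a2 window is chr3:62104888-62105137 on the minus strand. Nr4a1 and Nr4a2 were the 2 of the 3 members with a window in the reference table used here. Each window rests on 1 annotated start, and whether that start is used in these cells was not tested.
Nr4a1: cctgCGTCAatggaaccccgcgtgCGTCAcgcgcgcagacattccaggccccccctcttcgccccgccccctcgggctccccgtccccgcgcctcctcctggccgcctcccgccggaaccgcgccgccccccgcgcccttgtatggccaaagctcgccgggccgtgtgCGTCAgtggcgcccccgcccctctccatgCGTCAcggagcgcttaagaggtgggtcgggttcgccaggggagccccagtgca
Nr4a2: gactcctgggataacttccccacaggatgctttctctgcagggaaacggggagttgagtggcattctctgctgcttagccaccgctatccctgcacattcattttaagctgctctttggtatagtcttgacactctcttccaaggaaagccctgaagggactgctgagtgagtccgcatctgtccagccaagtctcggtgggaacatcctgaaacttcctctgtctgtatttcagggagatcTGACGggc
The Nr4a1 window held 4 half-sites, whose 5′ ends lie 246, 226, 82 and 53 bases before the start. The Nr4a2 window held 1, which lies 8 bases before the start. The shares over all windows were counted in longer windows, from 250 bases before to 50 bases after the start. In these longer windows Nr4a1 also held 4 half-sites and Nr4a2 also held 1. A half-site was found in 21.2% of all 33469 longer windows, and 4 or more were found in 79 windows (0.236%). Each of the 4 Nr4a1 half-sites is part of the longer run TGCGTCA, letters that were picked after the sequence had been read. That run was found at least once in 1.90% of windows, and Nr4a1's was the 1 window that held it 4 times. Neither window held the full CRE (TGACGTCA, in 1.83% of windows), the AP-1 site (TGAGTCA, 4.63%), the NBRE (AAAGGTCA, 1.43%) or the CArG box bound by SRF (1.64%), each searched on both strands. These matches describe the letters of the windows and were not tested for binding.

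The libraries held 18277724.5 to 22426186 assigned counts, so that 3 counts, the limit that a count of 0 allows, correspond to 0.134 to 0.164 CPM (counts scaled to library size by TMM). Such limits and the intervals below cover counting error only, and nothing in the labels ties a library to an animal. TBHP+FGF21 replicate 2 stood apart from its group: its mean Spearman correlation across genes was 0.9902 with the other 2 libraries of its own group and 0.9959 with the 3 TBHP libraries. The values of the Nr4a genes and the counts per list are therefore also given without it. TBHP replicate 3 also correlated more with the other group (0.9938) than with its own (0.9931), by a smaller margin. Of the 13 marker symbols listed for notochordal nucleus pulposus cells, with T and Tbxt naming the same gene, 11 were in the table and 5 passed the filter. The defining markers Tbxt, Noto and Shh were at 0 counts in all libraries, whereas Pax1 and the aggrecan gene Acan, a main product of disc cells, were abundant. Of 10 macrophage markers, Ptprc, Adgre1, Tyrobp, Cd163 and Mrc1 were at 0, whereas Cd14 had 3829 and Cd68 had 212 counts over the 6 libraries. Of 9 endothelial markers, Cdh5, Kdr, Emcn and Tie1 were at 0, whereas Cldn5 had 1079 and Esam had 115 counts. Col1a2 had 72 counts beside 4692995 for its partner chain Col1a1, so a count near 0 in this table was not read as absence of the transcript.

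Nr4a1 (ENSRNOG00000007607), the founding member of the family, stood higher in the TBHP+FGF21 group. TBHP replicates 1, 2 and 3 had 2480, 2336 and 2812 counts, which correspond to 139, 106 and 132 CPM. TBHP+FGF21 replicates 1, 2 and 3 had 4756, 3139 and 7324 counts, which correspond to 225, 150.2 and 319 CPM. All 3 libraries with FGF21 lay above all 3 without it, but replicate 2 only just did, at 1.08 times the highest TBHP library, while replicate 3 was 3.01 times the lowest. The group means were 125 ± 17.2 CPM without FGF21 and 232 ± 84.7 CPM with it (SD, n = 3 in each). This is a log2 fold change of 0.89 (SE 0.21), or 1.85-fold, and 0.56% of the genes tested had a larger one. This value was among those that led to the choice of the gene. Groups that did not overlap, with TBHP+FGF21 higher, were found for 4.90% of the genes tested, and the reverse for 5.00%.

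Nr4a2 (ENSRNOG00000005600), best known for its role in dopaminergic neurons, differed less. The TBHP libraries had 264, 322 and 329 counts, which correspond to 14.7, 14.6 and 15.4 CPM. The TBHP+FGF21 libraries had 370, 355 and 469 counts, which correspond to 17.5, 17.0 and 20.4 CPM. Again all 3 libraries with FGF21 were above all 3 without it, replicate 2 being the lowest of its group and replicate 3 the highest, as for Nr4a1. The means were 14.9 ± 0.44 and 18.3 ± 1.86 CPM (SD, n = 3 each), a log2 fold change of 0.30 (SE 0.12) or 1.23-fold. The ratio of single libraries between the groups ran from 1.10 to 1.40.

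Nr4a3 (ENSRNOG00000005964) was split within the TBHP+FGF21 group. The TBHP libraries had 177, 202 and 198 counts, which correspond to 9.89, 9.16 and 9.28 CPM. The TBHP+FGF21 libraries had 352, 188 and 378 counts, which correspond to 16.7, 9.00 and 16.5 CPM. Replicates 1 and 3 with FGF21 were above every TBHP library, whereas replicate 2 was the lowest of all 6, so the groups overlapped. The means were 9.44 ± 0.39 and 14.1 ± 4.38 CPM (SD, n = 3 each), a log2 fold change of 0.58 (SE 0.20) or 1.49-fold.

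**Figure D1:**
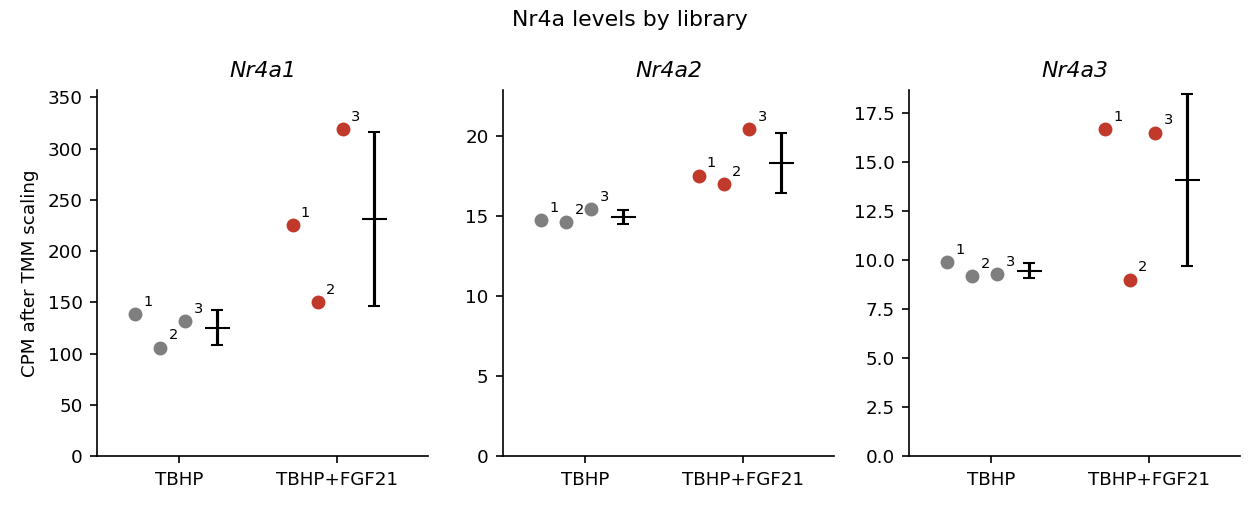
CPM after TMM scaling (vertical axes, each starting at 0 with its own range) of Nr4a1, Nr4a2 and Nr4a3 in the 3 TBHP and 3 TBHP+FGF21 libraries; points are libraries numbered by replicate, and the dash with bars is the group mean ± SD. Replicate 2 of the TBHP+FGF21 group is the lowest of its group in all 3 panels, and for Nr4a3, at 9.00 CPM, it lies below every TBHP library.

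Within groups, the members differed in how far replicates spread. For Nr4a1 the coefficient of variation was 13.7% in the TBHP group and 36.6% in the TBHP+FGF21 group, where counting error alone would give 1.98% and 1.40%. For Nr4a2 it was 2.94% and 10.1%, beside 5.73% and 5.01% from counting. For Nr4a3 it was 4.13% and 31.2%, beside 7.21% and 5.72% from counting. The TBHP replicates of Nr4a2 and Nr4a3 thus lay within what counting alone gives, and the wide spread of Nr4a1 and Nr4a3 with FGF21 did not. Of the genes tested, 5.37% had a larger coefficient of variation than Nr4a1 in the TBHP+FGF21 group, and 8.23% had a larger one than Nr4a3.

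Leaving out 1 library at a time kept all 3 log2 fold changes above 0. For Nr4a1 they ran from 0.59 (SE 0.16) without TBHP+FGF21 replicate 3 to 1.13 (SE 0.14) without TBHP+FGF21 replicate 2. For Nr4a2 they ran from 0.22 to 0.36, with the same libraries at the ends. For Nr4a3 the value was 0.82 without TBHP+FGF21 replicate 2 and 0.45 without replicate 1 or replicate 3 of that group. Replicate 3 of the TBHP+FGF21 group therefore set a large part of the size for Nr4a1, and replicate 2 lowered the value of every member. The FGF22 and FGF23 wording belongs to these same 2 libraries, and its part in the result was not tested.

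**Figure D2:**
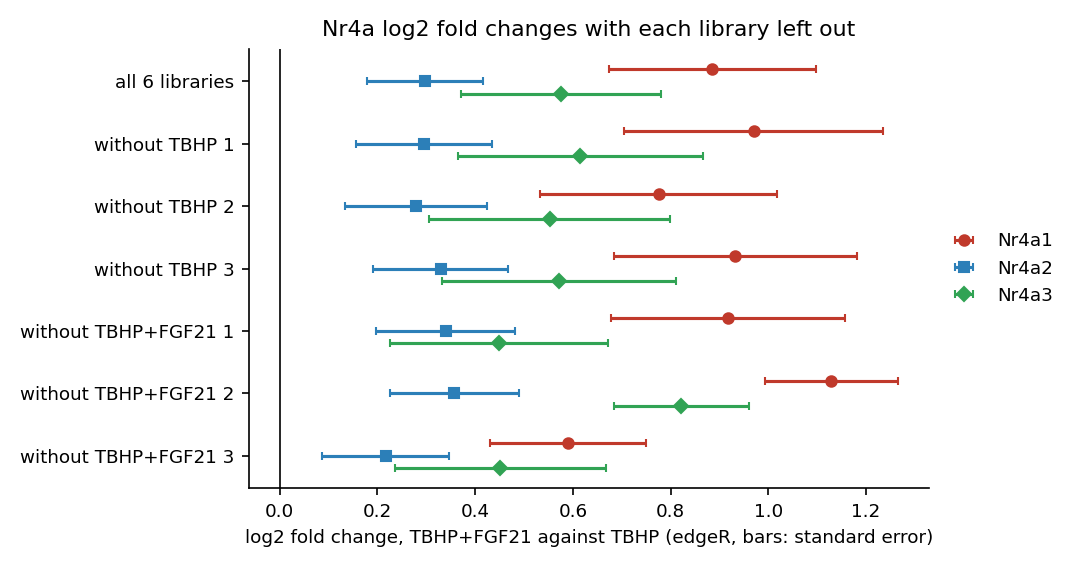
Log2 fold change of each Nr4a gene, TBHP+FGF21 against TBHP (horizontal axis, bars are standard errors of the edgeR fit), with all 6 libraries and with each library left out (vertical axis). All values lie above 0, and those of Nr4a1 range from 0.59 to 1.13.

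Nr4a1 took most of the reads of the family in every library. It held 84.9%, 81.7% and 84.2% of the summed Nr4a counts in the TBHP libraries and 86.8%, 85.3% and 89.6% in the TBHP+FGF21 libraries. Exact Clopper-Pearson 95% intervals reached from 83.6% to 86.2% for TBHP replicate 1 and from 89.0% to 90.3% for TBHP+FGF21 replicate 3. Nr4a2 made up 9.04%, 11.3% and 9.85% in the TBHP libraries and 6.75%, 9.64% and 5.74% with FGF21. Its share was lowest in the 2 libraries with the highest Nr4a1, replicates 1 and 3 of the TBHP+FGF21 group, although its own CPM was highest there. Nr4a3 made up 5.93% to 7.06% in the TBHP libraries and 4.63% to 6.43% with FGF21, ranges that overlap. Shares of reads depend on transcript length, so they describe the change in make-up between libraries and not which receptor had more transcripts. The summed family counts were 2921, 2860 and 3339 in the TBHP libraries and 5478, 3682 and 8171 in the TBHP+FGF21 libraries. In bulk RNA, fewer cells of a type and less RNA per cell cannot be told apart.

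The genes whose profiles over the 6 libraries lay closest to a member were found as the smallest root-mean-square difference of log2 CPM after centring each gene on its own mean. This describes likeness over 6 points that share their libraries and is no test. Closest to Nr4a1 were the chondrogenic factor gene Sox5 (difference 0.090), the repressor gene Prdm1 (0.101), the small heat shock protein gene Hspb7 (0.123), Stac (0.137), the glycogen-targeting phosphatase subunit gene Ppp1r3c (0.140), Tmem196 (0.140), the receptor gene Notch3 (0.145) and the periplakin gene Ppl (0.150), against a spread of Nr4a1 itself of 0.533. These 8 genes have the same shape as Nr4a1, with TBHP+FGF21 replicate 3 highest, replicate 1 next and replicate 2 near the TBHP libraries. Prdm1, for example, had 13.1, 12.3 and 13.8 CPM in the TBHP libraries and 22.5, 15.2 and 30.3 CPM with FGF21. The nearest family member to Nr4a1 was Nr4a3, 81st of 11425 genes (0.237), and Nr4a2 was 634th (0.377).

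Closest to Nr4a2 were Jmjd8 (0.026), the homeobox gene Hoxb8 (0.028), the planar cell polarity gene Prickle1 (0.041) and Hspa12a (0.043), against a spread of Nr4a2 of 0.168. Closest to Nr4a3 were the metalloreductase gene Steap2 (0.059), the sclerotome transcription factor gene Pax1 (0.075), the potassium channel gene Kcnk2 (0.076) and the aldehyde oxidase gene Aox1 (0.076), against a spread of 0.391. Pax1 had 229, 211 and 220 CPM in the TBHP libraries and 348, 224 and 385 CPM with FGF21, the same split of TBHP+FGF21 replicate 2 from replicates 1 and 3 that Nr4a3 showed. From the side of Nr4a3, Nr4a1 was 442nd and Nr4a2 963rd.

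**Figure D3:**
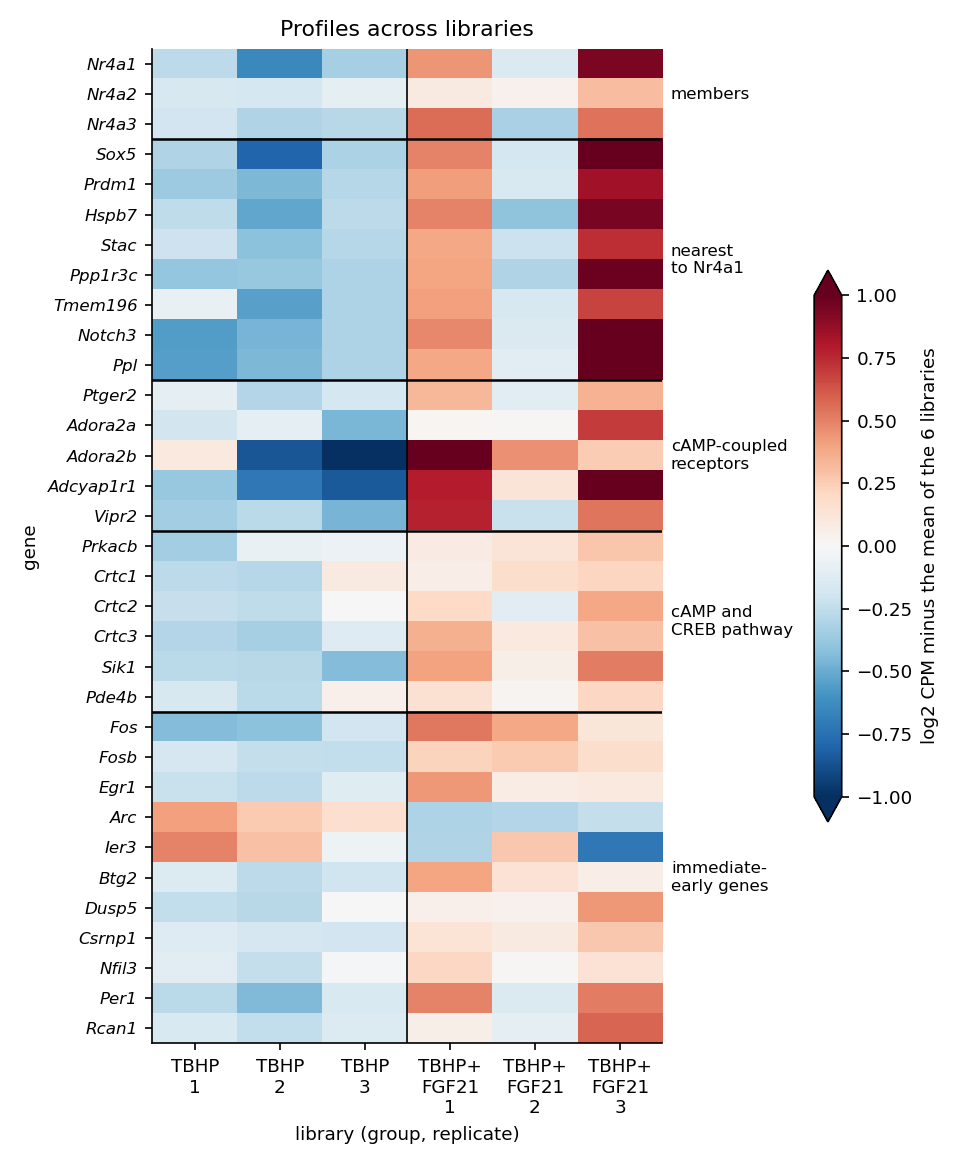
Log2 CPM minus the mean of the 6 libraries (colour, scale cut at -1 and 1) for the 3 Nr4a genes, the 8 genes nearest to Nr4a1, and the genes with an unadjusted p under 0.05 in the 3 lists of receptors, cyclic AMP and CREB genes and immediate-early genes (rows), in the 6 libraries (columns). Nr4a1 is most intense in TBHP+FGF21 replicate 3, at 0.94, whereas Fos is weakest of its group there, at 0.12.

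The other genes of the pathway were taken by role from lists that were compiled with earlier results of these data known. In the quasi-likelihood fit of edgeR, adjusted by Benjamini-Hochberg, 1 of the 11426 genes tested (0.00875%) had an adjusted p under 0.05, Sirt1, which is in none of the lists. At an unadjusted p under 0.05, 4.63% of genes were higher with FGF21 and 4.29% were lower, and the counts below are read against these shares. No gene of these lists passed after adjustment, and those with an unadjusted p under 0.05 had an adjusted p of 0.553.

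Among receptors that raise cyclic AMP, 8 of the 17 listed passed the filter, of which 5 were higher at an unadjusted p under 0.05 and none lower. Their median log2 fold change was 0.47, against -0.01 over all genes tested. Adcyap1r1, the receptor for the neuropeptide PACAP, had 1.45, 1.13 and 1.03 CPM in the TBHP libraries and 3.36, 2.11 and 3.97 CPM with FGF21, a log2 fold change of 1.39 (SE 0.28). Vipr2, a receptor for VIP and PACAP, had a log2 fold change of 0.79 (SE 0.24), and the low-affinity adenosine receptor Adora2b, with 82 counts in all, one of 1.34 (SE 0.45). The prostaglandin E2 receptor Ptger2 had 0.40 (SE 0.16) and Adora2a, named to complete the 5, had 0.54 (SE 0.25), whereas the other prostaglandin E2 receptor that couples to cyclic AMP, Ptger4, had -0.09 (SE 0.23). The summed CPM of the list was 28.3, 26.5 and 27.8 in the TBHP libraries and 39.8, 29.9 and 42.8 with FGF21, so TBHP+FGF21 replicate 2 was the lowest of its group here as for the 3 Nr4a genes. The count of 5 fell to 3 without TBHP replicate 2, TBHP+FGF21 replicate 1 or TBHP+FGF21 replicate 3.

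Of the 28 tested genes of the cyclic AMP and CREB pathway, 6 were higher at an unadjusted p under 0.05 and none lower, with a median log2 fold change of 0.09. Sik1, a CREB-induced kinase that restrains CREB coactivators, had 34.6, 34.5 and 30.9 CPM in the TBHP libraries and 55.1, 43.5 and 59.6 CPM with FGF21, a log2 fold change of 0.66 (SE 0.12). All 3 genes of the CRTC family of CREB coactivators were among the 6, and Crtc3 had a log2 fold change of 0.51 (SE 0.15) and Crtc2 0.33 (SE 0.13). The catalytic subunit gene Prkacb of protein kinase A had 0.32 (SE 0.12). Creb1 itself had -0.27 (SE 0.17) and the related factor gene Crem 0.00 (SE 0.15), neither with a p under 0.05. The count of 6 rested on single libraries: it was 2 without TBHP replicate 1, 3 without TBHP replicate 2 and 2 without TBHP+FGF21 replicate 3. With strand column 4 it was 3. Without TBHP replicate 1 or TBHP+FGF21 replicate 3, 1 gene of the list was lower.

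On the ERK, SRF and MEF2 side, 1 of 25 tested genes was higher and 1 lower at an unadjusted p under 0.05, with a median log2 fold change of 0.04. Fgfr1, the receptor that FGF21 uses together with the coreceptor Klb, had 138, 121 and 150.3 CPM in the TBHP libraries and 169, 153 and 193 CPM with FGF21, a log2 fold change of 0.33 (SE 0.11). Map2k1, which encodes the kinase MEK1 above ERK, was the gene that was lower, with -0.24 (SE 0.10). Klb had 0 counts in all 6 libraries. The limit given above covers counting error only, and this 0 was not read as absence of the transcript. The higher count was 0 without TBHP replicate 2 or TBHP+FGF21 replicate 3, 2 without TBHP replicate 1, 4 without TBHP replicate 3 and 8 without TBHP+FGF21 replicate 2, and the lower count was 0 without TBHP replicate 1, TBHP replicate 2, TBHP+FGF21 replicate 1 or TBHP+FGF21 replicate 3.

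Of the 34 tested immediate-early genes, 9 were higher and 2 lower at an unadjusted p under 0.05, and 9 were higher without overlap of the groups and 2 lower, with a median log2 fold change of 0.03. Fos, which encodes a subunit of AP-1, had 12.8, 13.1 and 15.3 CPM in the TBHP libraries and 25.2, 22.8 and 19.0 CPM with FGF21, a log2 fold change of 0.70 (SE 0.14). Its order within the TBHP+FGF21 group differed from that of Nr4a1, since replicate 3 was the lowest for Fos and the highest for Nr4a1. The clock gene Per1 was lowest in replicate 2 of that group, as the Nr4a genes were, with 55.4, 49.1 and 60.1 CPM in the TBHP libraries and 94.4, 60.2 and 95.3 CPM with FGF21. Egr1, a zinc finger factor, had a log2 fold change of 0.41 (SE 0.11), and the antiproliferative gene Btg2 had one of 0.41 (SE 0.10). At an unadjusted p under 0.05, the 2 lower genes were Arc at -0.60 (SE 0.26) and Ier3 at -0.46 (SE 0.21). The 2 lower without overlap were Arc and Dusp6, at -0.15 (SE 0.09), whereas the groups overlapped for Ier3. The unadjusted p of Dusp6 was not under 0.05. Arc, Ier3 and Dusp6 were named after their values were seen. With single libraries left out, the higher count ran from 6, without TBHP replicate 2 or TBHP+FGF21 replicate 3, to 11 without TBHP+FGF21 replicate 2. The lower count was 6 without TBHP+FGF21 replicate 2, 1 without TBHP replicate 1 and 0 without TBHP replicate 2, TBHP+FGF21 replicate 1 or TBHP+FGF21 replicate 3. Junb was not analysed here.

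**Figure D4:**
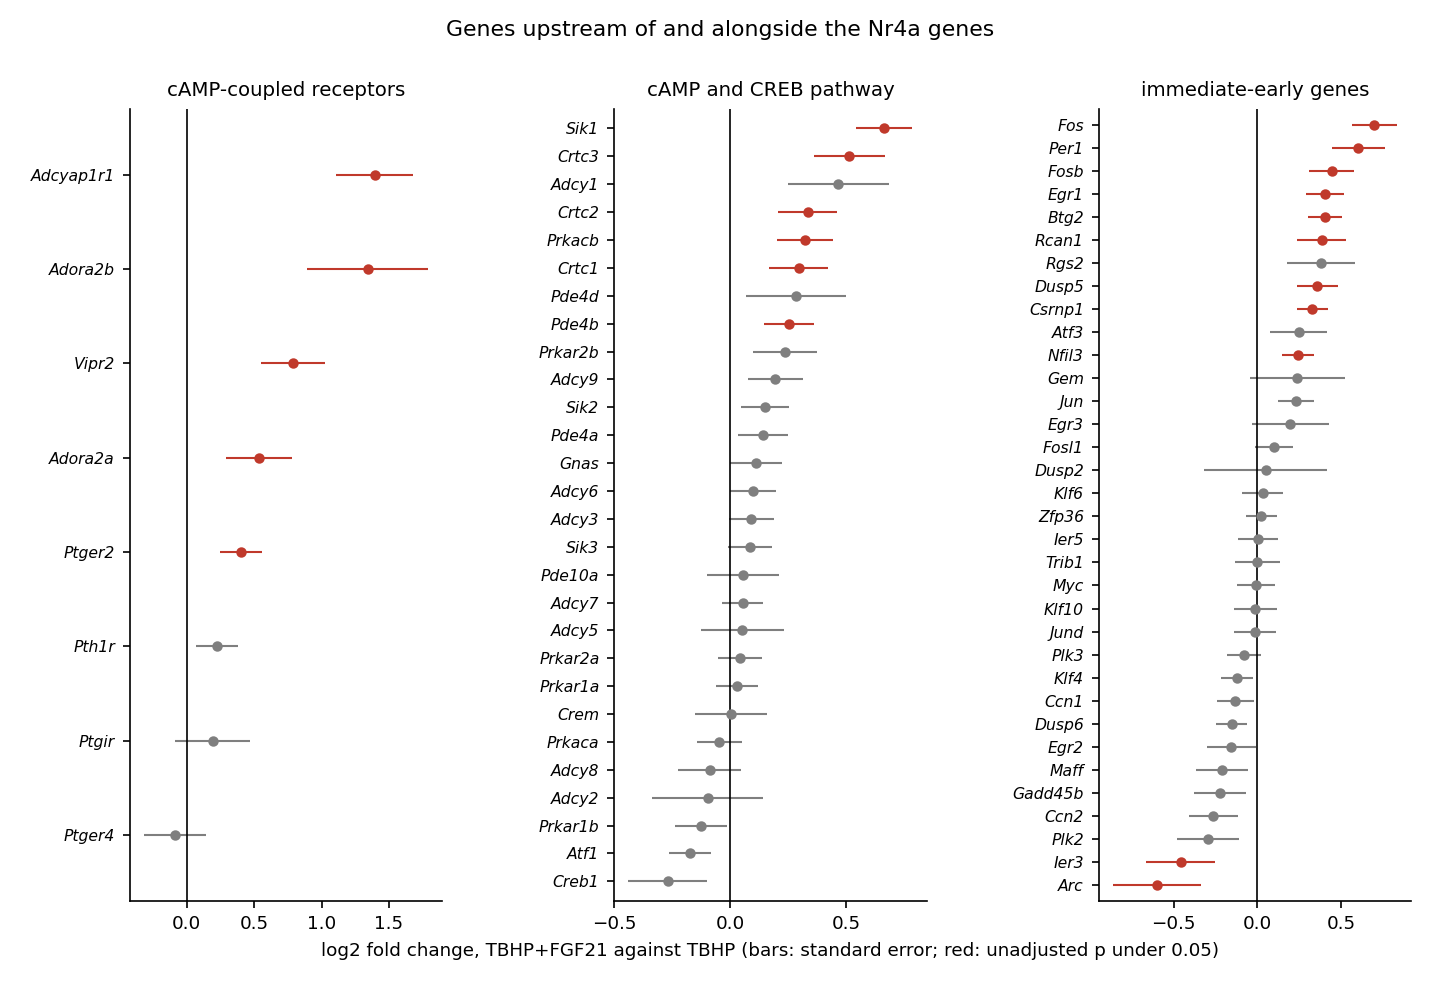
Log2 fold change, TBHP+FGF21 against TBHP (horizontal axis, bars are standard errors), of the tested genes (vertical axis) of 3 lists: 8 cyclic AMP-coupled receptors, 28 cyclic AMP and CREB pathway genes and 34 immediate-early genes; red marks an unadjusted p under 0.05. Red points number 5, 6 and 11, and the 2 with negative values are Arc and Ier3.

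Among the partners of the receptors, Rxra, the RXR gene that forms heterodimers with Nr4a1 and Nr4a2, had 34.7, 28.0 and 32.9 CPM in the TBHP libraries and 39.6, 35.4 and 48.0 CPM with FGF21, a log2 fold change of 0.37 (SE 0.13) with an unadjusted p of 0.0146. Without TBHP replicate 2 or TBHP+FGF21 replicate 3, the unadjusted p of Rxra was no longer under 0.05. Rxrb had 0.06 (SE 0.10). None of the 12 tested coregulators of NR4A proteins had an unadjusted p under 0.05, and their median log2 fold change was 0.09. Without TBHP replicate 3, 3 coregulators were higher and 1 lower, and without TBHP+FGF21 replicate 2 the counts were 1 and 1. Of 17 tested genes reported in other tissues as NR4A targets, 4 were higher and 1 lower, with a median of -0.02. Pdk4, which restrains pyruvate oxidation, had a log2 fold change of 1.23 (SE 0.45) from 124 counts in all, and the collagenase gene Mmp13 had 0.56 (SE 0.22). Nfkbia, the inhibitor of NF-kappa-B, had 0.36 (SE 0.15), and Nr0b1, the gene that was lower, had -1.60 (SE 0.48) from 47 counts. The higher count of 4 fell to 1 without TBHP replicate 1 or TBHP+FGF21 replicate 3 and to 0 without TBHP replicate 2.

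Without TBHP+FGF21 replicate 2, 437 of 11559 genes (3.78%) were higher and 430 (3.72%) lower at an adjusted p under 0.05 when edgeR was refitted. That library was singled out by its likeness to the TBHP libraries in these same data. The adjusted p-values of this refit take no account of that choice, so its calls are a description and not a test. Among the receptors, 3 of 9 tested then passed and were higher, Adcyap1r1 (log2 fold change 1.62), Vipr2 (1.04) and Ptger2 (0.54). In the cyclic AMP and CREB pathway 4 of 29 passed, all higher, with Sik1 at 0.79. Of the 34 immediate-early genes, 7 passed as higher, with Per1 at 0.80 and Fos at 0.69, and 2 as lower, Ier3 (-0.75) and Gadd45b (-0.44), the latter named after its values were seen, while Arc did not pass. Rxra passed at 0.47, Fgfr1 at 0.42 and, of the 17 NR4A targets, Mmp13 at 0.83. None of the 12 coregulators passed. With each of the other 5 libraries left out instead, no gene of these lists passed.

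Beside the Nr4a genes, the cell type lists held genes that were higher and genes that were lower in the TBHP+FGF21 group. The summed level of the notochordal list was 272, 259.5 and 274 CPM in the TBHP libraries and 396, 273 and 428 CPM with FGF21. Most of this sum was Pax1, described above as a sclerotome factor gene. Of its 5 tested genes, Pax1 had a log2 fold change of 0.54 and the other 4 were below 0, with a list median of -0.34. Among those, the keratin gene Krt8 had -0.43 (SE 0.20) and was lower without overlap of the groups, and Cd24 had -0.55 (SE 0.36).

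The chondrocyte-like matrix list, with 9 of 11 genes tested, summed to 4244 to 4700.2 CPM in the TBHP libraries and 4941, 4583 and 5373 CPM with FGF21, and its median log2 fold change was -0.08. Acan, which makes up much of this sum, had 2681, 2506 and 2939 CPM in the TBHP libraries and 3476, 2864 and 4355 CPM with FGF21. Col11a1, a fibrillar collagen gene, went the other way, with 1679, 1628 and 1645 CPM in the TBHP libraries and 1333, 1609.7 and 905 CPM with FGF21. In all, 2 genes of this list were higher and 1 lower at an unadjusted p under 0.05, and Col11a1 and Chad were lower without overlap.

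The summed level of the annulus fibrosus and fibroblast list, of which 11 of 12 genes were tested, was 45761 to 50278 CPM in the TBHP libraries and 44253, 47839 and 34735 CPM with FGF21, lowest in the library with the highest Nr4a1. Most of this sum was Col1a1, with 42463, 39098 and 38265 CPM in the TBHP libraries and 36809, 40114 and 27868 CPM with FGF21. The median log2 fold change over the list was 0.06, with 6 genes above 0 and 5 below. At an unadjusted p under 0.05, 1 gene of the list was higher and 1 lower. The macrophage list summed to 32.2 to 37.9 CPM without and 26.8 to 33.0 CPM with FGF21, and the endothelial list to 8.88 to 12.1 CPM and 7.63 to 11.7 CPM. In the refit without TBHP+FGF21 replicate 2, with the limit given above, 1 of 5 notochordal genes passed the adjusted threshold (Pax1, higher). So did 3 of 9 chondrocyte-like genes (2 higher and 1 lower) and 2 of 11 annulus and fibroblast genes (1 higher and 1 lower). The part of these differences in the values of the Nr4a genes was not tested.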

How the data were processed

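Rat NPCs gave 6 RNA-seq libraries, grouped by their titles. The authors deposited raw counts per Ensembl identifier for each library, in an unstranded column and a column per strand, and a combined table per gene symbol. Because 22 rows of the combined table were not whole, it was treated as estimated counts, in the form the authors deposited, and these rows were rounded up, although raw counts had been planned for. The submitters' processing notes name STAR and featureCounts, and the build and annotation are not given in the sources used here. Members were linked to identifiers by identical counts in all 6 libraries. Reads were split about evenly over the strand columns (strand column 4 held 51.7% to 52.1% of the unstranded counts), so antisense reads could not be told apart. Unmapped, multimapping (6.27% to 7.02%), unassigned and ambiguous (1.72% to 2.09%) reads stayed out of library sizes.

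Counts were fitted with edgeR 4.0.16 in R 4.3.3 (TMM, filterByExpr with minimum count 10 and total 15, glmQLFit, glmQLFTest, Benjamini-Hochberg adjustment over all genes tested), after a test on simulated data. Replicates are named as biological replicates, but no animal is given, and p-values measure the spread between these libraries. No library was taken for a repeat of another, since chi-square per gene lay between 6.98 and 58.3 over the 15 pairs. Profiles used log2 CPM with a prior count of 2. Members and lists were chosen with earlier results of these data known. Genes named were the members, the 8 nearest profiles to Nr4a1 and the 4 nearest to each other member, up to 4 genes per list by p, and a set of pathway genes. Alternatives used limma 3.58.1, DESeq2 1.42.0, the per-sample counts, other filters, a replicate block and leaving out libraries. Human tissue, protein and animal data were not analysed here.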

Additional observations from a re-analysis of the deposited data

How the results depend on the processing

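The log2 fold changes of Nr4a1, Nr4a2 and Nr4a3 stayed above 0 under every alternative run. Leaving out each library gave 0.59 to 1.13 for Nr4a1, 0.22 to 0.36 for Nr4a2 and 0.45 to 0.82 for Nr4a3, and 6 to 11 immediate-early genes higher at an unadjusted p under 0.05. With strand column 4, Nr4a2 had 0.43. The cause was not tested. The count of genes past an adjusted p of 0.05, 1 by edgeR (Sirt1, with 1019 genes at an unadjusted p under 0.05), was 0 with the unstranded per-sample counts (1082 unadjusted), 0 with strand column 4 (1049 unadjusted), 0 by limma-voom (996 unadjusted), 4 by DESeq2, 5 with no filter on low counts, and 0 to 867 with a library left out, the 867 without TBHP+FGF21 replicate 2. The cause was not tested.

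With the replicate block, 2 genes passed (1599 at an unadjusted p under 0.05), and Nr4a1, Nr4a2 and Nr4a3 had log2 fold changes of 0.83, 0.29 and 0.53. Same-numbered libraries deviated together with correlations of -0.12, 0.21 and 0.15, so the numbers were not taken to pair the samples.

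Nr4a2 and Nr4a3 had 177 to 469 counts per library, and at their group mean counts the counting error was 5.01% to 7.21%. With 3 libraries a group, 1 library can move a value as shown.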

Other observations

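CRE half-sites were also counted per gene, in any of its windows from 250 bases before to 50 bases after a start. They were found in 15 of the 23 tested immediate-early genes that had a promoter window (65.2%). In the cyclic AMP and CREB pathway 14 of 23 tested genes with a window had one (60.9%). Of all 27457 gene symbols with a window, expressed here or not, 23.0% had one. The share over the tested genes alone was not counted, so these sets are unlike. Lists with other roles held them too: 4 of 8 NR4A coregulators, 6 of 21 genes of the ERK, SRF and MEF2 pathway (28.6%), 3 of 3 notochordal markers and 1 of 2 RXR partners. Of the receptors that raise cyclic AMP, Pth1r alone of 7 had one, and of the 7 genes nearest to Nr4a1 in profile that had a window, Prdm1 and Notch3 did. An NBRE was found in none of the 16 NR4A target genes with a window, against 1.49% of all symbols. These are counts of letters in short windows with differing base composition, and no gene's response was tested against them.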
